A study of Mus musculus with 34 samples.

Results

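The genes described are 36 genes of fatty acid uptake and oxidation, chosen by their symbol among the gene names printed in the array files and followed through all 17 groups of a mouse heart cell reprogramming series. All 36 had a probe that passed the filter on dim probes, out of 19413 genes tested. The groups, with 2 arrays each, hold cells of the CD1 strain with an aMHC-GFP genotype, a green reporter under the alpha myosin heavy chain promoter, so every group, controls included, carries that reporter. Neonatal cardiac fibroblasts (neoCF) and neonatal cardiomyocytes (neoCM) were taken fresh from pups at postnatal day 1.5. Induced cardiomyocytes (iCM) were neonatal fibroblasts given a retrovirus that encodes Mef2c, Gata4 and Tbx5 (MGT) on a single transcript, 4 weeks after infection. Cultured cardiac fibroblasts were sampled before infection (CF D0) and at days 3, 5, 7, 10 and 14 after infection with MGT or with LacZ, the control gene. Cardiomyocytes were also differentiated from 2 lines of induced pluripotent stem cells, made from cardiac fibroblasts with Oct4, Sox2, Klf4 and cMyc. They were taken at day 13 (iPSC1-CM), at day 9 (iPSC2-CM D9) and, after long-term culture, at day 29 (iPSC2-CM D29). Medium for iCM and for iPSC-derived cells was StemPro-34 with growth factors. No sorting of cells is named in the labels, which also do not say that the 2 arrays of a group came from separate cultures, so p-values measure only the spread between these samples, which may be technical.

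Long-chain fatty acids enter heart muscle cells through CD36 and fatty acid transport proteins, are carried in the cytosol by fatty acid binding protein, and are activated to acyl-CoA by the acyl-CoA synthetases. The carnitine shuttle then passes the acyl groups into the mitochondrion, where CPT1 takes the step that malonyl-CoA inhibits, and beta-oxidation shortens them by repeated rounds of dehydrogenation, hydration, a second dehydrogenation and thiolysis. The heart relies largely on glycolysis and lactate before birth and turns to fatty acid oxidation in the days and weeks after it, a change in which the PPAR and ERR nuclear receptors and their PGC-1 coactivators take part.

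The level of a gene is the log2 of its processed intensity minus the 75th percentile of the same array, so 0 means as bright as that percentile. It is comparable between arrays but not between genes, whose probes differ. A gene was called higher or lower where the limma fit over all 34 arrays gave an adjusted p under 0.05 and a change of at least 2-fold. Where arrays of different groups are said below not to overlap, the genes were mostly picked by their calls. Such statements describe the values and add no support to a call. A probe was well above background where the scanner software marked it so. Of the 36 genes, 34 were well above background on all 34 arrays, Cpt1b was on 29 and Acsl6 on 3. Spots well above background numbered 28715 to 44881 an array, and no spot was saturated. The 17 groups lay on 6 slides scanned on 3 days. MGT and LacZ of the same day shared a slide at days 3 to 10, whereas iCM and neoCM shared a slide only in part. Arrays of neoCM and iCM were scanned on 1 day and those of neoCF, CF D0 and the iPSC-derived cells on another, so scan day and group cannot be told apart where neoCM or iCM is set against fibroblasts or iPSC-derived cells. The 8 cardiomyocyte markers had a median level of 7.29 and 7.40 in neoCM and of -1.73 and -1.89 in CF D0. Their median was 3.76 and 3.94 for iCM, 5.43 and 5.41 for iPSC2-CM D9, and 3.51 and 3.65 for iPSC1-CM. In neoCF, which the labels call fibroblasts, that median was 1.94 and 1.10, and the median of 8 macrophage markers was 2.61 and 2.07.

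The genes stood highest as a group in fresh cardiomyocytes. The median level over the 36 genes was 3.58 and 3.50 on the neoCM arrays, 2.79 and 2.70 for iCM, 2.70 and 2.38 for iPSC2-CM D9, 2.25 and 2.28 for iPSC1-CM, 2.04 and 2.09 in neoCF and 2.06 and 1.92 in CF D0. Of the 36, 25 had their highest group mean in neoCM and 5 in iCM (Cpt1a, Acadsb, Lpl, Pdk4 and Ehhadh). CF D0 held the highest mean of Acsl4 and Acsl5 and the lowest mean of 11 genes. The mean of iCM lay between those of CF D0 and neoCM for 25 genes, nearer to CF D0 for 18 of them and nearer to neoCM for 7.

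**Figure D1:**
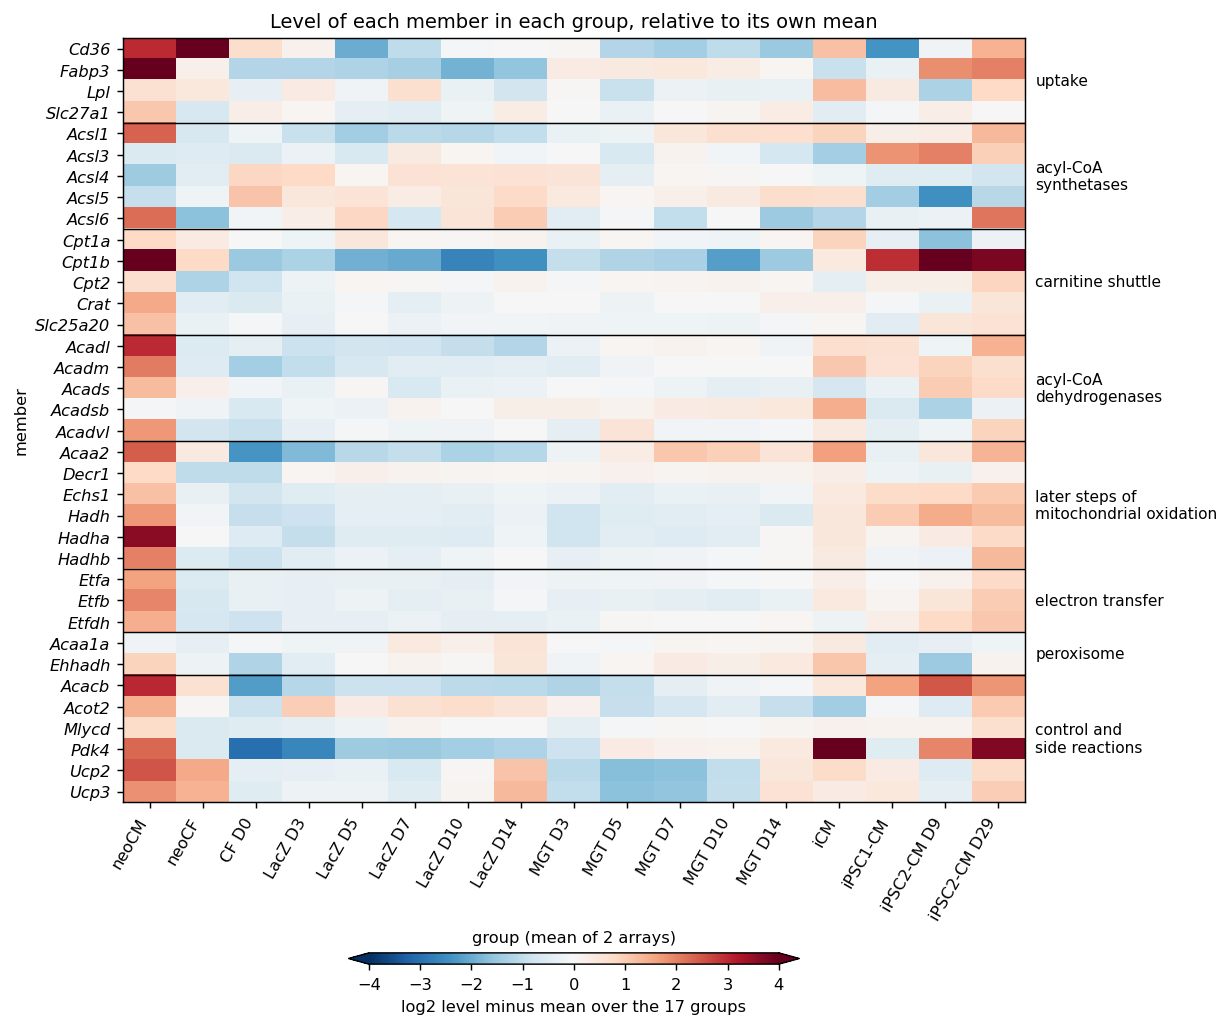
Group mean (2 arrays) of each of the 36 genes, as log2 level minus that gene's own mean over the 17 groups, with genes in rows by role and groups in columns. Colours end at -4 and 4, and values past these share the end colour. The neoCM column is the warmest for 25 genes, and the darkest cells of other columns belong to Cpt1b, Pdk4 and Cd36.

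Fresh cardiomyocytes against fibroblasts is the comparison of the cell type the reprogramming aims at with the cells it starts from. Against freshly isolated neoCF, 27 of the 36 genes were higher and 2 lower in neoCM, where 15.5% of all genes tested were higher and 16.1% lower. Against cultured CF D0, 28 were higher and 2 lower, with 22.6% of all genes higher and 22.6% lower. The median difference of the 36 genes was 1.81 against neoCF and 2.27 against CF D0 (log2), and that of all genes tested was -0.04 and -0.12. Both comparisons share the neoCM arrays. In these bulk samples, fewer cells of a type and less RNA per cell cannot be told apart.

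**Figure D2:**
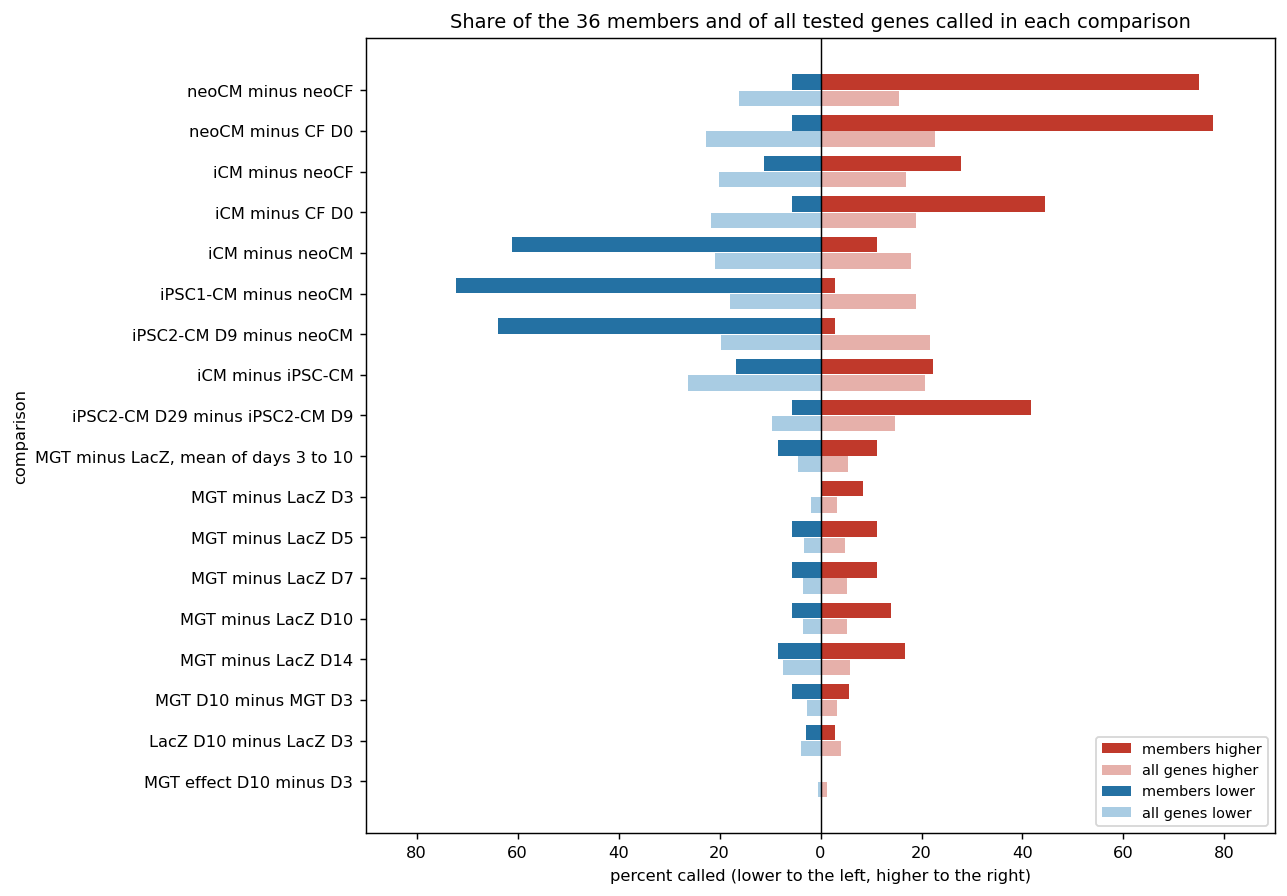
Percent of the 36 genes (dark bars) and of all genes tested (light bars) called higher (to the right) or lower (to the left) in each comparison. The bars of the 36 genes are longest to the right in the comparisons of neoCM with fibroblasts, 75% and 77.8%, and to the left in those of iCM and iPSC-derived cells with neoCM.

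Every enzyme of the later mitochondrial steps was higher in neoCM than in either fibroblast group, 6 of 6 each time. These are the hydratase Echs1, the 3-hydroxyacyl-CoA dehydrogenase Hadh, both subunits of the trifunctional protein (Hadha and Hadhb), the thiolase Acaa2 and the reductase Decr1, which handles unsaturated acids. Hadha lay at 3.81 and 3.86 in neoCM, at 0.26 and 0.25 in neoCF and at -0.34 and -0.18 in CF D0. Acaa2 lay at 7.51 and 7.45 in neoCM, at 5.53 and 5.32 in neoCF and at 2.84 and 2.59 in CF D0. No fibroblast array of these groups reached a neoCM array in either gene. Hadha was higher by 3.58 ± 0.30 (log2, SE, n = 2 arrays a group) than in neoCF (limma adjusted p = 9.1e-09) and by 4.10 ± 0.30 than in CF D0 (limma adjusted p = 4.3e-10). For Acaa2 the difference was 2.05 ± 0.20 against neoCF and 4.76 ± 0.20 against CF D0. The acceptors that pass electrons from the acyl-CoA dehydrogenases to the respiratory chain, Etfa, Etfb and Etfdh, were all higher as well, by 1.90 to 2.28 against CF D0.

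Among the acyl-CoA dehydrogenases, which differ in the chain length they take, 4 of 5 were higher against either fibroblast group. Acadl rose by 3.53 against neoCF and 3.37 against CF D0, Acadm by 2.59 and 3.44, Acadvl by 2.47 and 2.65, and Acads by 1.07 and 1.39. Acadsb, which acts on branched short chains, differed by 0.08 (limma adjusted p = 0.66) and 0.53, short of 2-fold. In the carnitine shuttle 4 of 5 were higher, namely Cpt1b, the inner-membrane transferase Cpt2, the carrier Slc25a20 and the acetyltransferase Crat, with Cpt2 up by 1.91 and 1.48.

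The 2 forms of the malonyl-CoA sensitive transferase parted. Cpt1b, the form of heart and skeletal muscle, lay at 3.94 and 3.88 in neoCM, at -1.41 and -1.74 in neoCF and at -4.04 and -3.64 in CF D0. Cpt1a, the form of liver and of many other cells, lay at 3.34 and 3.35 in neoCM, at 2.85 and 2.87 in neoCF and at 2.62 and 2.44 in CF D0. Both genes were higher on each neoCM array than on any fibroblast array of these groups, but by very different amounts. The Cpt1b difference was 5.48 ± 0.32 against neoCF (limma adjusted p = 7.5e-11) and 7.75 ± 0.32 against CF D0 (limma adjusted p = 8.1e-14), the largest called rise of the 36 genes in both comparisons. Cpt1a differed by 0.48 ± 0.14 and 0.81 ± 0.14, below the 2-fold that a call needs. The probes lie at chr15:89246836-89246895 on the minus strand for Cpt1b and at chr19:3385374-3385433 on the plus strand for Cpt1a, in the mm9 coordinates of the array files. Their place within exon or UTR was not annotated here.

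**Figure D3:**
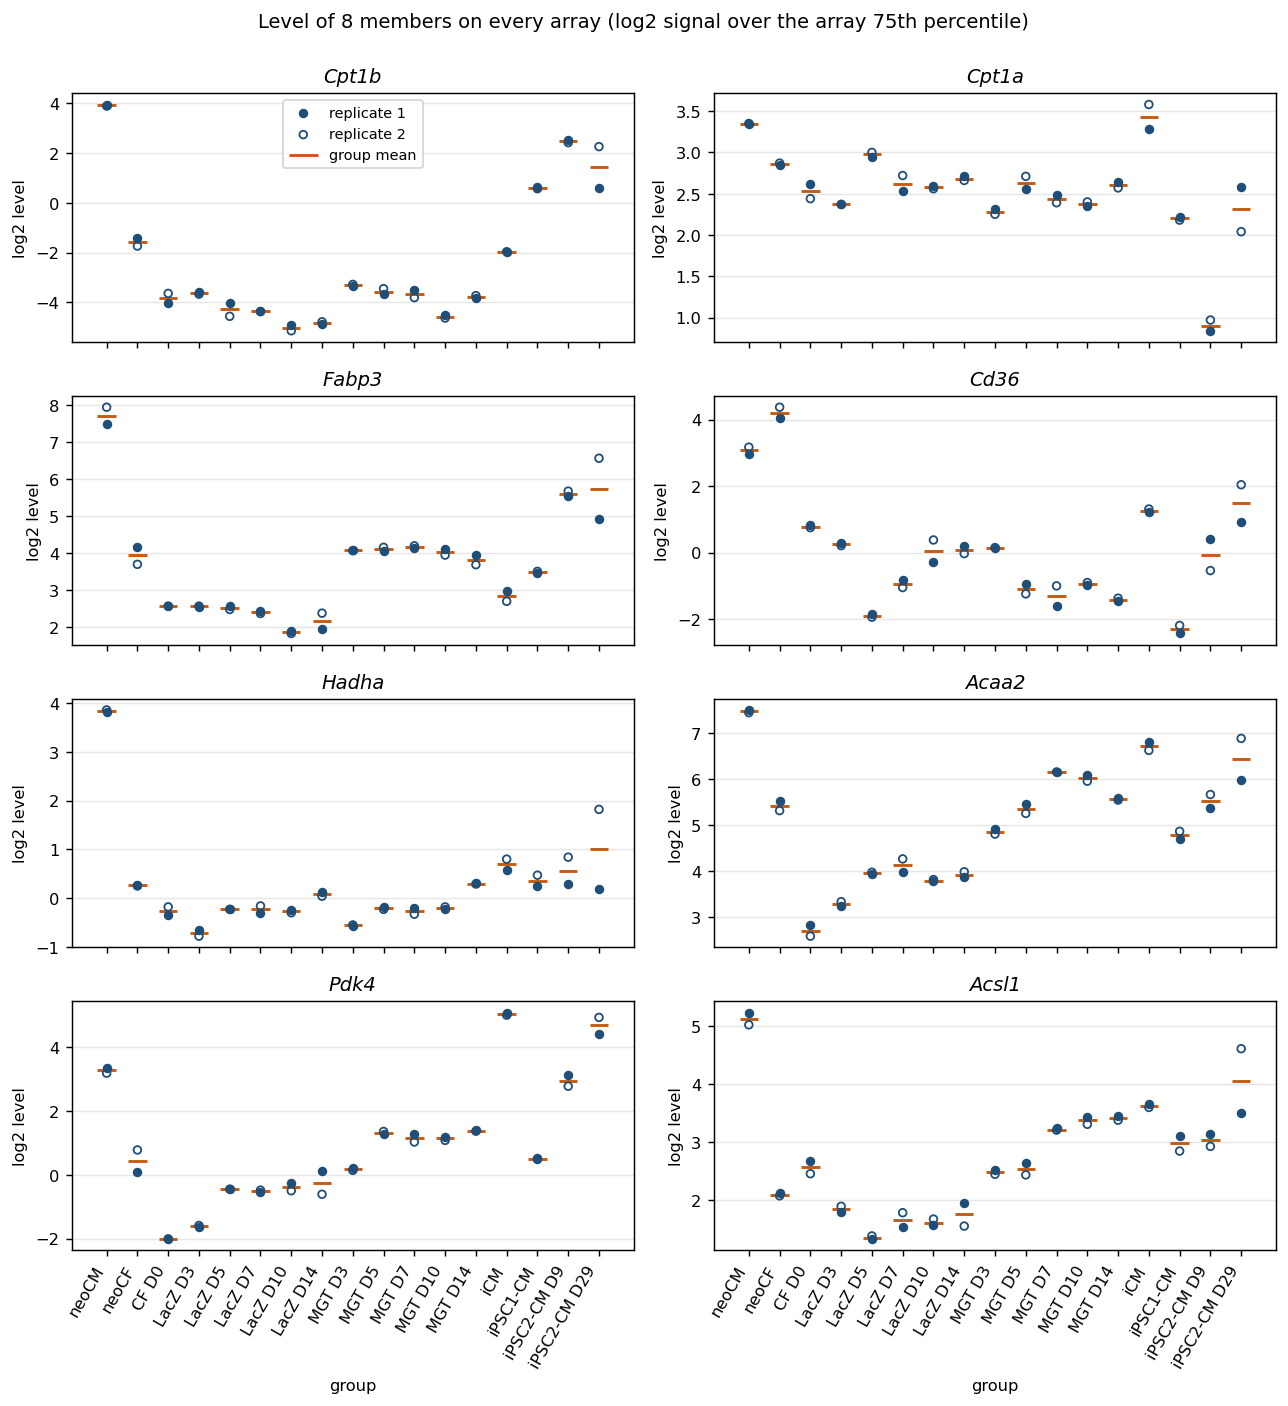
Level (log2 signal over the array's 75th percentile) of 8 genes on all 34 arrays, filled points for replicate 1, open points for replicate 2 and a line for the group mean, with a separate vertical axis for each gene. Cpt1b spans from 3.94 in neoCM to -5.14 in LacZ D10, Cpt1a from 3.58 in iCM to 0.84 in iPSC2-CM D9, and the 2 iPSC2-CM D29 arrays stand apart in most panels.

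In uptake, Fabp3, the cytosolic carrier of heart muscle, was higher by 3.79 and 5.16. Its levels were 7.50 and 7.95 in neoCM, 4.17 and 3.70 in neoCF and 2.56 and 2.57 in CF D0. Slc27a1, a transport protein of the plasma membrane, was higher only against neoCF among these 2 comparisons (1.70, and 0.80 against CF D0), and whether those 2 values differ was not tested. Cd36, the membrane translocase, lay at 2.97 and 3.17 in neoCM, between neoCF at 4.04 and 4.37 and CF D0 at 0.82 and 0.75. It was therefore lower than in neoCF by 1.14 (limma adjusted p = 0.0043) and higher than in CF D0 by 2.28. Cd36 is also made by endothelial cells and macrophages: the median of 8 endothelial markers was 2.85 and 2.84 in neoCF, 0.49 and 0.43 in CF D0 and -0.12 and -0.19 in neoCM, and the part of such cells in the Cd36 result was not tested.

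The acyl-CoA synthetases went both ways. Acsl1, the main form of heart and fat, rose by 3.02 against neoCF and 2.56 against CF D0. Acsl4, which prefers arachidonic acid, lay at 1.67 and 1.42 in neoCM, 2.42 and 2.69 in neoCF and 3.80 and 3.81 in CF D0, a fall of 1.01 and 2.26. Acsl5 lay at 0.67 and 0.70 in neoCM against 2.78 and 2.69 in CF D0, a fall of 2.05, and the difference from neoCF was -0.76. Acsl3, a form of the endoplasmic reticulum and of lipid droplets, differed by -0.07 and 0.00. Acsl6 was not well above background in either fibroblast group and lay at -5.24 and -5.12 in neoCM, at least 2.98-fold higher than in neoCF and at least 1.08-fold higher than in CF D0. Its probe passed the filter on dim probes only through neoCM, the group where it is high. Acsl6 is still counted as higher in neoCM in both comparisons, and as lower than neoCM in iCM, iPSC1-CM and iPSC2-CM D9. Those calls were favoured by the filter and add no support. An at-least fold sets the mean of the bright group against the dimmest signal that counts as well above background, or the gene's own value where that is higher.

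Of the control and side reactions, all 6 genes were higher than in CF D0 and 5 of 6 higher than in neoCF. Pdk4, the kinase that switches off pyruvate dehydrogenase and so spares glucose, lay at 3.36 and 3.19 in neoCM, 0.08 and 0.78 in neoCF and -2.01 and -2.01 in CF D0, up by 2.84 and 5.28. Acacb, the carboxylase that makes malonyl-CoA at the mitochondrion, rose by 2.41 and 5.25, and Mlycd, which breaks malonyl-CoA down, by 1.31 and 1.21. The thioesterase Acot2 was up by 1.38 and 2.29 and the uncoupling protein Ucp2 by 1.01 and 2.89. In the peroxisome the bifunctional enzyme Ehhadh rose by 1.09 and 2.08, and the thiolase Acaa1a differed by 0.18 and -0.06.

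Against neoCF, the count of lower genes fell to 0 without neoCF replicate 2, where Cd36 differed by -0.98 and Acsl4 by -0.88, and to 1 without neoCM replicate 2. The Acot2 call ended without any one of the 4 arrays (1.26 to 1.5, limma adjusted p = 0.052 to 0.095). Acads (0.93), Ehhadh (0.99) and Ucp2 (0.86 and 0.97) each lost the call without one of the arrays. For Acads and also Ucp2 this was neoCM replicate 2, for Ehhadh neoCM replicate 1, and for Ucp2 neoCF replicate 1 as well.

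Reprogrammed iCM were next set against the fibroblasts. The series holds no LacZ culture at 4 weeks, so MGT, time in culture and any change of medium cannot be told apart here. Against CF D0, 16 of the 36 genes were higher and 2 lower in iCM, where 18.9% of all genes were higher and 21.6% lower. Against neoCF, 10 were higher and 4 lower, with 16.9% of all genes higher and 20.1% lower. The median difference of the 36 genes was 0.85 against CF D0 and 0.65 against neoCF, and that of all genes was -0.2 and 0.01. The medians move with scaling. Against CF D0 the median of all genes became -0.01 with quantile normalization, and then the median of the 36 genes was 0.93. Against neoCF the same setting lowered the median of the 36 genes to 0.45, with 0.04 for all genes.

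Pdk4 led the rise. Its level in iCM was 5.09 and 5.01, above every other array of the series, and it was up by 7.06 ± 0.21 against CF D0 (limma adjusted p = 4e-15) and by 4.62 ± 0.21 against neoCF (limma adjusted p = 2.2e-12). Acaa2 lay at 6.82 and 6.63, up by 4.01 ± 0.20 against CF D0 and 1.30 against neoCF. The later steps rose in 5 of 6 genes against CF D0, and the sixth, Hadha, differed by 0.96. The median level of these 6 genes was 2.83 and 2.67 in CF D0, 3.66 and 3.62 in LacZ D14 and 4.16 and 4.13 in iCM. That of all 36 genes was 2.06 and 1.92 in CF D0 and 1.96 and 2.29 in LacZ D14. The dehydrogenases rose in 4 of 5 against CF D0, led by Acadm (2.44) and Acadsb (2.06). Acadsb lay at 2.61 and 2.73 in iCM, above 1.17 and 1.12 in neoCM and 1.02 and 1.11 in neoCF. The peroxisomal Ehhadh rose by 2.31 and the lipase Lpl, which frees fatty acids from lipoproteins, by 1.56. Without CF D0 replicate 2 the calls of Acadl (1) and Acsl1 (0.95) against CF D0 ended. Those of Acadl (0.9) and Ucp2 (0.89) ended without iCM replicate 2.

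In the carnitine shuttle 1 of 5 genes was called against CF D0, and of the electron acceptors 0 of 3. The shuttle gene was Cpt1b, at -1.96 and -1.97 in iCM and -4.04 and -3.64 in CF D0 (1.88 ± 0.32, limma adjusted p = 4e-05). It differed from neoCF by -0.39 (limma adjusted p = 0.3). Cpt1a lay at 3.28 and 3.58 in iCM, both above CF D0, with a difference of 0.90 that was short of 2-fold. A second Cpt1a probe, well above background in both groups, gave -0.06. The acceptors Etfa, Etfb and Etfdh differed from CF D0 by 0.54, 0.71 and 0.64, with limma adjusted p of 0.028, 0.014 and 0.044 but each below 2-fold. Fabp3 lay at 2.97 and 2.70 in iCM, 0.26 from CF D0 (limma adjusted p = 0.48) and 1.10 below neoCF.

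The falls against neoCF were Cd36, Acot2, Fabp3 and Ucp3. Cd36 lay at 1.21 and 1.31 in iCM, 2.94 ± 0.31 below neoCF and 0.48 above CF D0, the latter not called. Acot2 lay at -2.07 and -2.29 in iCM and at -0.85 and -0.62 in neoCF (-1.44, limma adjusted p = 0.014). Against CF D0 the 2 lower genes were Acsl4 (-1.0, levels 2.87 and 2.73 in iCM) and Acsl6, which was below background on both sides and has no fold. The count of lower genes against CF D0 was 0 without CF D0 replicate 2 and 1 without any other array of the comparison, and that against neoCF was 2 without iCM replicate 2 or without neoCF replicate 2. Fabp3 lost its call against neoCF without iCM replicate 2 (-0.97) or neoCF replicate 1 (-0.87), Acot2 without iCM replicate 2 (-1.34) or neoCF replicate 2 (-1.33), and Ucp3 without iCM replicate 1 (-0.95) or neoCF replicate 2 (-0.99).

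Other cell type markers moved with iCM. Of 8 adipocyte markers, 7 were well above background on both iCM arrays and their summed linear level was 23.6 and 22.4, against 0.14 and 0.175 in neoCM, 0.155 and 0.134 in CF D0 and 0.183 and 0.196 in neoCF. In iCM Adipoq lay at 2.20 and 2.20, Cfd at 3.40 and 3.43, Retn at 2.65 and 2.35 and Plin1 at 0.01 and -0.19, whereas Lep was at -4.29 and -4.45 and Ucp1 at -6.90 and -6.28. The 8 macrophage markers summed to 113 and 110 in iCM, 27.5 and 25 in CF D0 and 93.8 and 64.6 in neoCF. Endothelial markers went the other way, with a median of -2.64 and -2.4 in iCM, 0.49 and 0.43 in CF D0 and 2.85 and 2.84 in neoCF. Cd36 is made by endothelial cells too. Lpl, Cd36, Pdk4, Acsl1 and Ehhadh are expressed in fat cells too, and the part of these markers in their levels was not tested.

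Set against fresh cardiomyocytes, iCM were lower in 22 of the 36 genes and higher in 4, where 20.9% of all genes were lower and 18% higher. The median difference of the 36 genes was -1.33 and that of all genes -0.06. Lower in iCM were 3 of 4 uptake genes, 4 of 5 shuttle genes, 3 of 5 dehydrogenases, 3 of 6 later steps, all 3 electron acceptors and 4 of 6 control genes.

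Cpt1b differed most, at -1.96 and -1.97 in iCM against 3.94 and 3.88 in neoCM (-5.88 ± 0.32, limma adjusted p = 1.1e-11). Fabp3 fell by 4.89 ± 0.31, from 7.50 and 7.95 to 2.97 and 2.70 (limma adjusted p = 1.3e-10). Hadha followed with 0.58 and 0.80 against 3.81 and 3.86 (-3.14 ± 0.30). In all 3 the iCM arrays lay well under the neoCM arrays. Acot2 was lower by 2.82, Acacb by 2.60, Acadl by 2.32, Cd36 by 1.80, Etfdh by 1.65 and Hadhb by 1.64. Cpt1a differed by 0.09 ± 0.14 (limma adjusted p = 0.59; -0.62 on its second probe) and Ehhadh by 0.23 (limma adjusted p = 0.39).

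Higher in iCM than in neoCM were Pdk4, Acsl5, Acadsb and Acsl4. Pdk4 lay at 5.09 and 5.01 against 3.36 and 3.19 (1.78 ± 0.21, limma adjusted p = 8e-07). Acsl5, which also serves triglyceride synthesis, lay at 2.09 and 2.39 against 0.67 and 0.70 (1.56 ± 0.18). Acadsb was up by 1.53 and Acsl4 by 1.26. The groups did not overlap for any of these 4 genes, which adds no support, since the genes were picked by their calls. With slide as a fixed block, 25 of the 26 calls held and Cpt2 did not (-0.98), and Cpt2 also lost its call without iCM replicate 2 (-0.92) or neoCM replicate 1 (-0.98). Slc25a20, another shuttle gene, lost its call without neoCM replicate 2 (-0.95).

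The iPSC-derived cells were lower than fresh cardiomyocytes in most of the genes too. In iPSC1-CM 26 of 36 were lower and 1 higher, where 17.9% of all genes were lower and 19% higher. In iPSC2-CM D9 23 were lower and 1 higher, with 19.8% of all genes lower and 21.6% higher. The median difference was -1.5 and -1.46, against 0.08 and 0.11 for all genes. The neoCM arrays are common to these comparisons. The gene called higher in each line was Acsl3, at 2.62 and 2.36 in iPSC2-CM D9 and 2.28 and 2.25 in iPSC1-CM, where neoCM had -0.03 and -0.18. It was up by 2.60 ± 0.24 (limma adjusted p = 1.7e-08) and 2.37 ± 0.24 (limma adjusted p = 7.8e-08). The count of higher genes became 2 without neoCM replicate 1 in both lines and also without iPSC2-CM D9 replicate 2 in that line.

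Cd36 fell the most in iPSC1-CM, to -2.43 and -2.19 from 2.97 and 3.17 (-5.38 ± 0.31), and lay at 0.42 and -0.54 in iPSC2-CM D9 (-3.13). Fabp3 lay at 3.46 and 3.51 in iPSC1-CM (-4.24 ± 0.31) and at 5.54 and 5.68 in iPSC2-CM D9 (-2.11). Hadha lay at 0.25 and 0.47 and at 0.28 and 0.84 (-3.48 and -3.27), and in iPSC2-CM D9 Acadl lay at 1.66 and 1.19 against 4.69 and 4.50 (-3.17 ± 0.20). No array of either line reached neoCM in these genes. The 2 CPT1 forms again took different values. Cpt1b was at 0.64 and 0.56 for iPSC1-CM, then 2.53 and 2.41 for iPSC2-CM D9, lower than neoCM by 3.31 and 1.44, while Cpt1a was at 2.22 and 2.18 and at 0.84 and 0.97, lower by 1.14 and 2.44. Differences between the 2 lines were not tested.

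Pdk4 was lower by 2.77 in iPSC1-CM (0.52 and 0.48) and differed by -0.32 (limma adjusted p = 0.2) in iPSC2-CM D9. Ucp2 was lower by 2.19 and 3.04, Ehhadh by 1.28 and 2.34, and Acaa2 by 2.69 and 1.95. Genes whose difference was not called in either line included Echs1 (-0.44 and -0.40), Hadh (-0.72 and -0.23), Cpt2 (-0.43 and -0.43), Mlycd (-0.58 and -0.59) and Acaa1a (-0.32 and -0.21). Decr1 lost its call in iPSC1-CM without iPSC1-CM replicate 1 (-1) or neoCM replicate 1 (-0.92), and in iPSC2-CM D9, where Acadsb did too (-0.95), without replicate 2 of that group (-0.83).

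Directly against the mean of iPSC1-CM and iPSC2-CM D9, iCM were higher in 8 and lower in 6 of the 36 genes, where 20.6% of all genes were higher and 26.2% lower. The share of the 36 genes called higher was thus near that of all genes, and their median difference was 0.31 against -0.23 for all genes. Over all genes the split was 4000 higher and 5093 lower, and it turned to 4449 and 3646 with quantile normalization. Pdk4 led the higher genes (5.09 and 5.01 in iCM, 3.32 ± 0.19 above the mean, limma adjusted p = 8.3e-12). Acsl5 lay at 2.09 and 2.39 in iCM against 0.26, 0.14, -1.01 and -0.67 (2.56 ± 0.15). Cd36 (2.45), Acadsb (2.37), Ehhadh (2.04), Cpt1a (1.88), Lpl (1.68) and Acaa2 (1.57) were higher too. Cpt1b was lower by 3.50 ± 0.27 (-1.96 and -1.97 against 0.64, 0.56, 2.53 and 2.41), Acsl3 by 3.26 ± 0.20, Fabp3 by 1.72, Acacb by 1.63, Acot2 by 1.10 and Acads by 1.05. The 2 iCM arrays overlapped none of the 4 iPSC arrays in Cpt1b, Acsl3 or Pdk4. Acot2 lost its call without iCM replicate 1 (-1.21), iCM replicate 2 (-1) or iPSC2-CM D9 replicate 1 (-0.92), and Acads without iCM replicate 2 (-0.86), iPSC1-CM replicate 2 (-0.85) or iPSC2-CM D9 replicate 2 (-0.99).

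Long-term culture of the second iPSC line was compared with day 9, and here the 2 day 29 arrays disagreed. They differed by a median of 1 (log2 units) over the 36 genes, the largest such value of the 17 groups, and by up to 2.71. With both, 15 genes were higher and 2 lower at day 29, where 14.7% of all genes were higher and 9.57% lower, and the median difference was 0.62. Taken alone against the day 9 mean, replicate 1 was at least 2-fold higher in 10 genes and lower in 4, with a median of 0.1. Replicate 2 was so in 22 and in none, with a median of 1.1. There were 9 genes at least 2-fold higher on both arrays and 12 with opposite signs. Over all genes the SD of the difference between the 2 day 29 arrays was 1.73, and 0.318 to 0.71 in the other groups. The fit shares 1 spread per gene over all groups, so SE and p-values at day 29 do not measure the spread of that group. Those arrays also enter the spread of every other comparison. Without them MGT against LacZ at day 3 had 809 genes higher and 696 lower, in place of 618 and 361.

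**Figure D4:**
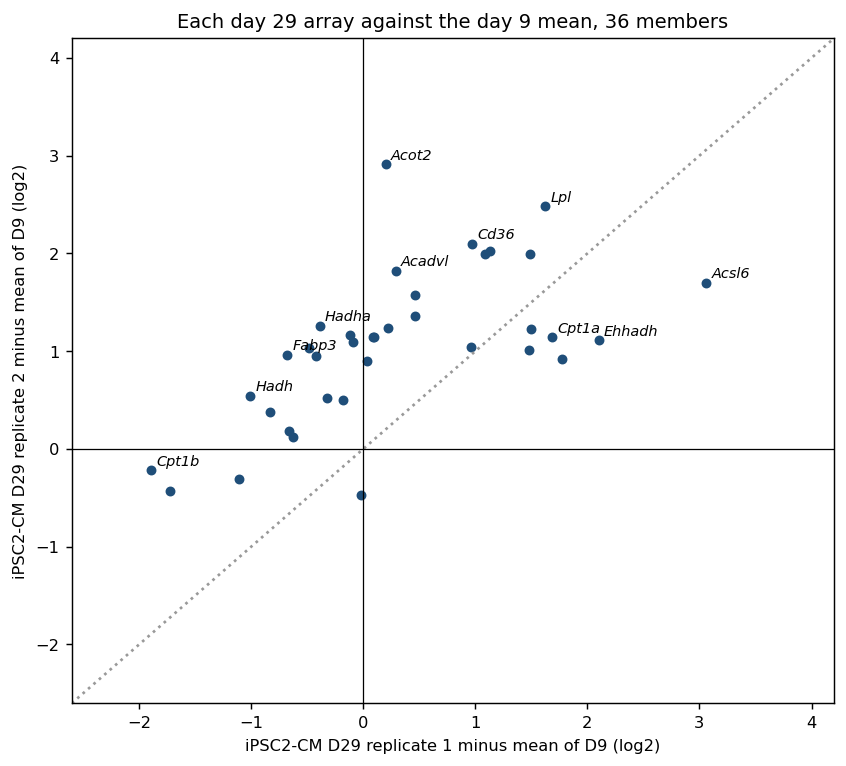
Each point is 1 of the 36 genes, with its day 29 minus day 9 difference (log2) in replicate 1 on the horizontal axis and in replicate 2 on the vertical axis, and the dotted line where both are equal. Most points lie above the line, and Acsl6, Ehhadh and Cpt1a are among those below it.

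Lpl lay at 5.10 and 5.96 at day 29 against 3.50 and 3.45 at day 9 (2.05 ± 0.19, limma adjusted p = 5.1e-08), and Cpt1a at 2.58 and 2.04 against 0.84 and 0.97 (1.41 ± 0.14, limma adjusted p = 1.2e-07). In both genes each day 29 array lay above both day 9 arrays. Pdk4 (1.74), Ehhadh (1.61), Acadl (1.57), Cd36 (1.54), Hadhb (1.54), Ucp3 (1.37) and Acsl5 (1.34) were called as well. Acsl6 lay at -4.60 and -5.96 against -7.65 and -7.68, at least 1.05-fold higher, with 1 of the 2 day 29 arrays well above background. Acot2 rested on a single array, at -1.10 and 1.62 against -0.93 and -1.67. The lower genes were Acsl3, at 0.77 and 2.06 against 2.62 and 2.36 (-1.07), and Cpt1b, at 0.58 and 2.25 against 2.53 and 2.41 (-1.05). Leaving out iPSC2-CM D29 replicate 1 gave 22 higher and 0 lower, with Cpt1b at -0.22, Acsl3 at -0.43 and Acsl5 at 0.92. Leaving out replicate 2 gave 10 higher and 4 lower, with Acot2 at 0.20 and Cd36 at 0.97. Without iPSC2-CM D9 replicate 1 the lower count was also 0. With array weights 2 genes were higher and 0 lower.

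The markers of those 2 arrays differed as well. The cardiomyocyte median was 4.00 and 5.60, the fibroblast median 3.75 and -2.28, and the median of 5 hepatocyte or endoderm markers, those tested of 6 listed, 1.98 and -7.20. Of 8 adipocyte markers, 7 were well above background on replicate 1, with a summed level of 19, and 3 on replicate 2, with 1.22, against 0.514 and 0.489 at day 9. Their part in the difference between the arrays was not tested.

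The time course compared MGT with LacZ in the same cells at the same day. Over the mean of days 3 to 10, 4 of the 36 genes were higher with MGT and 3 lower, where 5.48% of all genes were higher and 4.43% lower. The median difference was 0.08, against -0.09 for all genes, and 25 of the 36 genes were called on no single day. The 4 higher genes were Acaa2 (1.80 ± 0.10, limma adjusted p = 1.2e-11), Fabp3 (1.76 ± 0.16, limma adjusted p = 2.1e-08), Pdk4 (1.69 ± 0.11, limma adjusted p = 1.5e-10) and Acsl1 (1.28 ± 0.11, limma adjusted p = 2e-08).

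By day, the counts were 3 higher and 0 lower at day 3, against 3.18% and 1.86% of all genes. At an unadjusted p under 0.05, limma had 2 genes lower at that day. They were 4 and 2 at day 5 (4.91% and 3.33% of all genes), 4 and 2 at day 7 (5.31% and 3.43%), 5 and 2 at day 10 (5.24% and 3.38%) and 6 and 3 at day 14 (5.84% and 7.36%). The lower count at day 14 includes Acsl6, which was below background in both arms. At that day MGT and LacZ lay on different slides of the same scan day, and the split over all genes, 1133 higher and 1428 lower, became 1324 and 761 with quantile normalization.

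Before these values are followed by day, the 250 bases upstream of the start of Fabp3, Pdk4, Acsl1 and Acadm are shown. The first 3 were higher with MGT over days 3 to 10, as was Acaa2, which had no such window. Acadm was called with MGT on no day and was picked because it holds a motif that nuclear receptors of this pathway are known to bind. The windows are from RefSeq, GRCm38.p6, and read 5′ to 3′ on the gene's strand. Fabp3 is at chr4:130308488-130308737 on the plus strand, Pdk4 at chr6:5496279-5496528 on the minus strand and Acadm at chr3:153944644-153944893 on the minus strand. Acsl1 has a start at chr8:46470787-46471036 and another at chr8:46490716-46490965, both on the plus strand. Capitals mark AGATAA, the GATA motif searched, and TGACCTT, the reverse complement of the ERR motif AAGGTCA.
Fabp3: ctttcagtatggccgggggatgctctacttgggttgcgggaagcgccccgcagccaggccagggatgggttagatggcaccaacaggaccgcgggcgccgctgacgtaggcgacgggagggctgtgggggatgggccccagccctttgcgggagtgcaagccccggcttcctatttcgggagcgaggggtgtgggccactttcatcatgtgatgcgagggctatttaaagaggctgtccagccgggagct
Pdk4: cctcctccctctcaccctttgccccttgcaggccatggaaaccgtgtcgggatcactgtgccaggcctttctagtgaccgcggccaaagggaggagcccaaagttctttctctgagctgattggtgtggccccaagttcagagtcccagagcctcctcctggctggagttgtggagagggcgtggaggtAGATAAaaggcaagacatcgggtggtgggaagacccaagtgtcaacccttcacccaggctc
Acsl1 first start: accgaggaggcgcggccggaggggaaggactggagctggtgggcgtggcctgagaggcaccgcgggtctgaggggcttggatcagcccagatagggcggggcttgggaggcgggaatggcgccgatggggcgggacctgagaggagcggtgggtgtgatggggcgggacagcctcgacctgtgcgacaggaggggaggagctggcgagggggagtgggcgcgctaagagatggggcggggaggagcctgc
Acsl1 second start: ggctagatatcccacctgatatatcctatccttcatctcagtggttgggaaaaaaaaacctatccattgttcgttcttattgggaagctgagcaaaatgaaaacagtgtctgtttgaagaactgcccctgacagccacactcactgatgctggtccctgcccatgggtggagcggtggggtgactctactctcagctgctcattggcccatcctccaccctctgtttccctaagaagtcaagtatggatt
Acadm: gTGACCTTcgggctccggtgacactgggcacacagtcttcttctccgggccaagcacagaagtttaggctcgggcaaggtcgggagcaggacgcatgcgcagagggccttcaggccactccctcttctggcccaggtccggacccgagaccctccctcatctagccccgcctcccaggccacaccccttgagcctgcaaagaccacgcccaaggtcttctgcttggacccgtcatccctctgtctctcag
Of the 36 genes, 31 had such a window. On either strand, AGATAA occurred in 2 of 31 (6.45%; 11.4% of all genes with a window), namely Pdk4 and Acadvl. The T-box motif AGGTGT occurred in 3 (9.68%, against 13.6%) and the nuclear receptor half-site AGGTCA in 7 (22.6%, against 15.8%). The ERR motif AAGGTCA, which contains that half-site, occurred in 2 (6.45%, against 4.7%), Acadm and Acsl6. The MEF2 motif was in 0 of 31, against 3.42% of all genes. A match here is a run of letters, and its absence says only that the letters are not in this window.

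Acaa2, a thiolase, lay at 4.91 and 4.81 with MGT against 3.24 and 3.34 with LacZ at day 3, and at 6.09 and 5.96 against 3.79 and 3.82 at day 10. Fabp3 lay at 4.10 and 4.07 against 2.55 and 2.57 at day 3, and at 4.12 and 3.95 against 1.90 and 1.83 at day 10. Pdk4 lay at 0.22 and 0.14 against -1.64 and -1.59 at day 3, and at 1.19 and 1.08 against -0.27 and -0.50 at day 10. In these 3 genes both MGT arrays were above both LacZ arrays on each of the 5 days, and they were called on all 5. The differences from day 3 to day 14 ran between 1.40 and 2.22 for Acaa2, between 1.53 and 2.17 for Fabp3 and between 1.53 and 1.79 for Pdk4.

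Acsl1 was called from day 5, with differences of 0.63 (limma adjusted p = 0.1), 1.17, 1.55, 1.75 and 1.66 over the 5 days. Its levels at day 10 were 3.44 and 3.31 with MGT and 1.57 and 1.68 with LacZ, and the arms did not overlap. Acadl had differences of 0.62, 0.80, 0.94, 1.00 and 1.03, called at days 10 and 14. Its calls at these days ended without LacZ D10 replicate 1 (0.89), MGT D10 replicate 2 (0.97), LacZ D14 replicate 1 (0.97) or MGT D14 replicate 1 (0.98).

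Cpt1b and Cpt1a moved little with MGT. Cpt1b lay at -3.84 and -3.73 with MGT at day 14 and at -4.85 and -4.78 with LacZ, where it was below background, at least 1.79-fold higher with MGT. That call ended without any one of the 4 arrays (0.98 to 1.08, limma adjusted p = 0.079 to 0.11), and the difference was 0.25 in the authors' deposited values. Cpt1a differed by -0.34 to -0.08 over the 5 days, each short of 2-fold. The differences of the electron acceptors and the peroxisomal genes ran from -0.41 to 0.44.

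Lower with MGT over days 3 to 10 were Acot2, Ucp3 and Ucp2, by 1.12 ± 0.24, 1.08 ± 0.08 and 1.07 ± 0.11. The Ucp3 probe used here followed Ucp2 closely over all arrays (correlation 0.979), so Ucp2 and Ucp3 are not independent results. Ucp2 lay at -1.42 and -1.56 with MGT against -0.06 and -0.06 with LacZ at day 5 (-1.43, limma adjusted p = 7.1e-05), and at -0.82 and -0.76 against -0.08 and 0.61 at day 10 (-1.05). Ucp2 and Ucp3 were called at days 5, 7 and 10. Without LacZ D10 replicate 2, Ucp2 at day 10 was -0.71 and Ucp3 -0.80, so the lower count there was 0, and the Ucp2 mean of days 3 to 10 was -0.99. That array had a macrophage median of 3.99, and the other LacZ D10 array 1.89. Without MGT D7 replicate 1 Ucp2 at day 7 was -0.93 and the lower count 1.

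Acot2 lay at -1.24 and -1.21 with MGT against -0.08 and -0.07 with LacZ at day 10 (-1.15, limma adjusted p = 0.12). In the iPSC2-CM D29 arrays, which enter the shared spread, Acot2 lay at -1.10 and 1.62. At day 14 it was called (-1.44, limma adjusted p = 0.032), though not without any one of the 4 arrays (limma adjusted p = 0.069 to 0.15). Cd36 lay at -1.44 and -1.37 with MGT against 0.21 and -0.03 with LacZ at day 14 (-1.49 ± 0.31, limma adjusted p = 0.0013). At day 5 its difference had the other sign (0.80, limma adjusted p = 0.099). The macrophage median was 4.13 and 4.26 with MGT and 4.58 and 4.99 with LacZ at day 14, and its part in Cd36 and Ucp2 was not tested. The endothelial median was -3.38 and -2.3 with MGT and -1.78 and -2.07 with LacZ at that day, and its part in Cd36 was not tested either.

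**Figure D5:**
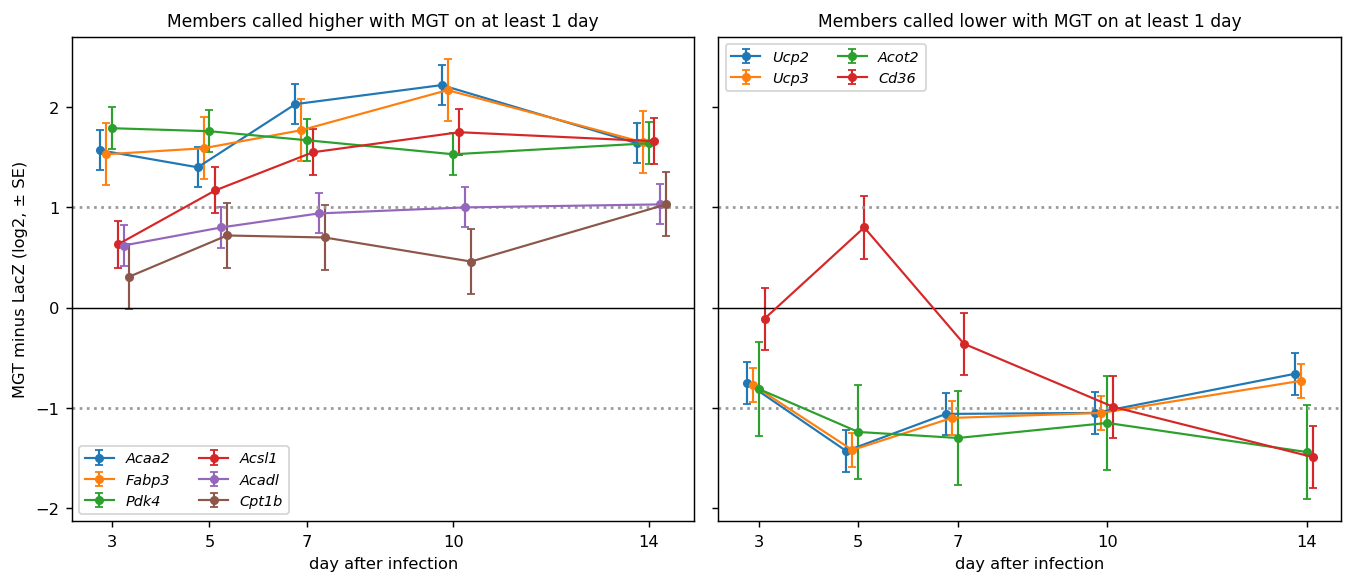
MGT minus LacZ difference (log2, bars ± SE, 2 arrays a group) at days 3, 5, 7, 10 and 14 for the genes called higher (left) and lower (right) on at least 1 day, with dotted lines at 2-fold. Acsl6, below background in both arms at day 14, is not drawn, and Cpt1b was below background with LacZ at days 10 and 14. Acaa2, Fabp3 and Pdk4 stay above the upper line on all 5 days.

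Within each arm, day 10 was compared with day 3, which lie on different slides, so slide and day cannot be told apart. With MGT, 2 genes were higher and 2 lower, where 3.3% of all genes were higher and 2.62% lower. With LacZ, 1 was higher and 1 lower, where 4.04% were higher and 3.83% lower, a split of 784 and 743 genes that became 551 and 858 with quantile normalization. With MGT, Acaa2 rose by 1.17 ± 0.20 (limma adjusted p = 0.00038) and Acacb by 1.10 ± 0.22, from -1.70 and -1.49 to -0.47 and -0.53. Cpt1b was lower by 1.25 (-4.51 and -4.63 against -3.36 and -3.28) and Cd36 by 1.08 (-0.98 and -0.90 against 0.13 and 0.15). Both of these calls ended without any one of the 4 arrays, where the lower count was 0, and without MGT D3 replicate 1 Acacb ended as well (0.99, higher count 1). With LacZ, Pdk4 rose by 1.22 ± 0.21, from -1.64 and -1.59 to -0.27 and -0.50, and Cpt1b fell to below background at day 10 (at least 1.97-fold).

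The change of the MGT effect from day 3 to day 10 is free of a slide effect that adds equally to both arms. By limma it was called in 0 of the 36 genes in either direction, where 1.38% of all genes were higher and 0.592% lower. At an unadjusted p under 0.05 it had 3 higher and 0 lower, Acsl1 (1.12 ± 0.32, limma adjusted p = 0.079), Acacb (1.01 ± 0.31, limma adjusted p = 0.12) and Acaa2 (0.65 ± 0.28, limma adjusted p = 0.37). Other settings called 1 or 2 genes higher. The effect at day 10 is therefore not shown by this test to differ from that at day 3 in any of the 36 genes.

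A further 95 genes of the pathway were chosen by function, and their counts stand beside the shares of all genes given above for the same comparisons. Of 18 regulators, 8 were higher and 1 lower in neoCM than in CF D0 (22.6% and 22.6% of all genes). Those higher included the coactivator Ppargc1a (8.13 ± 0.23, limma adjusted p = 5.7e-16) and the receptor Esrrg (at least 55.8-fold), with Pparg, the fat cell receptor, lower by 1.11. In iCM against CF D0, 8 were higher and 3 lower (18.9% and 21.6% of all genes), with Ppargc1a up by 5.29 and Lpin1 by 4.30. In iCM against neoCM, 2 were higher, Pparg (3.51) and Klf15 (2.98), and 6 lower (18% and 20.9% of all genes). Among the lower were Esrrg (-4.17) and Esrrb, whose mean was -6.00 in iCM, with 1 of 2 arrays well above background, and 0.70 in neoCM. With MGT over days 3 to 10, 4 were higher than with LacZ (5.48% of all genes), among them Ppargc1b (2.21) and Esrrg. Esrrg was well above background on 2 of the 8 LacZ arrays of those days, and at day 10, where it was on neither, it was at least 4.75-fold higher with MGT. Pparg is also a defining gene of fat cells, whose markers are given above.

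The lipid droplet and lipolysis genes were higher in 7 and lower in 2 of 14 in neoCM than in CF D0, with Plin5, the droplet coat of oxidative tissue, at least 233-fold and Plin4 6.91 (log2) higher. In iCM 10 of 14 were higher than in CF D0 (18.9% of all genes), Plin4 by 7.94 and Cidea by 4.70, and Plin5 was lower than in neoCM by 6.91. The adipocyte markers summed to 23.6 and 22.4 in iCM and to 0.155 and 0.134 in CF D0, and their part in the lipid droplet genes was not tested. In iPSC1-CM 8 of 14 were lower than in neoCM (Plin4 -7.71, Plin5 -7.69). Among 15 other oxidation genes, 5 were higher in neoCM than in CF D0 (Ech1 4.31, Eci1 3.41). In iCM 8 were higher than in CF D0. Against neoCM, 1 was higher and 2 lower in iCM (Eci1 -2.14, Ech1 -1.64), where 18% of all genes were higher and 20.9% lower.

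On the glucose side, 10 of 16 genes were higher and 2 lower in neoCM than in CF D0. Slc2a1, the transporter of fetal heart and growing cells, was higher than in neoCM by 3.87 in iPSC1-CM and 4.38 in iPSC2-CM D9. Slc2a4, the insulin-responsive transporter, was higher with MGT than with LacZ on each of the 5 days, by 2.09 to 4.21. Of 13 other uptake and carnitine genes, 7 were higher and 2 lower in neoCM than in CF D0, and with MGT Vldlr was higher (1.11) and Slc27a6 (-2.43) and Angptl4 (-1.07) lower. Of 12 synthesis genes, 7 were higher in iPSC1-CM than in neoCM (19% of all genes), led by Scd1 (4.72), which was 6.28 higher in iCM than in neoCM. The adipocyte markers summed to 23.6 and 22.4 in iCM and to 0.14 and 0.175 in neoCM, and their part in Scd1 was not tested.

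Probes set limits for a few genes. The 36 genes had 47 probes, and 11 of them more than 1. The probes not used had the sign of the used one in 10 of 10 cases for neoCM against each fibroblast group, 7 of 9 for iCM against CF D0 and 9 of 10 for iCM against neoCM. The exceptions were Cpt1a in both, as given above, and Acacb for iCM against CF D0. Acacb was counted as higher there at 2.64, while its second probe gave -0.44, with 1 of the 2 CF D0 arrays well above background, and the mean of probes 1.10, still called. Ucp3, the uncoupling protein of muscle, was read from a bright probe whose level stayed within -0.34 to 0.82 of that of Ucp2 on every array. A second Ucp3 probe was well above background only on the neoCM arrays, at -4.27 and -4.14, and at or below -6.34 on all others. The Ucp3 values above therefore belong to that bright probe, whose correlation with Ucp2 over the arrays was 0.979. Counts above that hold both Ucp2 and Ucp3 do not rest on independent signals. With the mean of probes in place of the bright probe, the MGT difference of Ucp3 was -0.72 and not called.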

How the data were processed

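Cy3-labelled total RNA of mouse cells was hybridised to 34 single-colour Agilent arrays, 2 for each of 17 groups taken from the sample labels. The deposited scanner files hold processed fluorescence intensity per spot, which the file headers say Agilent Feature Extraction 10.7.3.1 adjusted for background and detrended, with no scaling between arrays recorded. A table of log2 values that the authors deposited, for which the submitters' processing notes name limma with no version, served as an alternative. Its centring was not stated.

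The log2 of processed intensity was averaged over the spots of a probe, without outlier and control spots, and each array's 75th percentile was subtracted. Probes were kept where some group had both arrays well above background, were named through RefSeq, and the brightest kept probe stood for a gene, which gave 19413 genes. One limma fit (limma 3.58.1, R 4.3.3, with version 1.17.8 of data.table) held a mean for each group with 17 residual and 1.99 prior degrees of freedom. Contrasts were adjusted by Benjamini-Hochberg over all genes. A call needs adjusted p under 0.05 and at least 2-fold. The code was tested on simulated data. Python 3.11.15, numpy 2.4.6, pandas 2.3.3 and matplotlib 3.10.9 searched promoters and drew the figures.

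The 36 genes, their roles, and the pathway and marker lists were chosen with earlier results of these data known. Levels on each array are given for the genes with the 2 largest called rises and falls of a comparison and for Cpt1a and Cpt1b, and up to 2 rises and 2 falls are named in a pathway list. A few results of the pathway lists are not reported here. The number of arrays limits the precision. Alternatives were quantile normalization, normexp with offset 50 followed by quantile normalization, the authors' values, no filter on dim probes, the mean of probes, array weights, slide and replicate blocks, and leaving out each array. A further 2 were chosen after seeing the data: each iPSC2-CM D29 array alone, and iCM against CF D0 without Ucp3.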

Additional observations from a re-analysis of the deposited data

Results flagged for a closer look

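Of the 95 further genes of the pathway, 2 were called higher and 0 lower for the change of the MGT effect from day 3 to day 10. Over all genes 1.38% were higher and 0.592% lower, so this small count is not read as a result of the pathway. For Ppargc1a, the coactivator of oxidative genes, the MGT effect was larger at day 10 by 4.09 ± 0.32 (log2, limma adjusted p = 7.4e-07). Its levels were -4.21 and -3.83 with MGT against -2.92 and -2.92 with LacZ at day 3, and -2.20 and -2.42 against -5.22 and -5.40, below background, at day 10. MGT was therefore the lower arm at day 3, by 1.10, and the higher at day 10, by at least 4.93-fold. Since the LacZ value at day 10 lies below background, 4.09 is the fitted value and not a measured size.

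For Cidea, a lipid droplet protein, the difference was 3.24 ± 0.52 (limma adjusted p = 0.001). Cidea lay at -3.83 and -3.21 with MGT against -3.40 and -3.58 with LacZ at day 3, and at -0.42 and -0.70 against -4.06 and -3.47 at day 10. The arms overlapped at day 3 and stood apart at day 10.

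The second Ucp3 probe, on which none of the Ucp3 calls rests, had a mean level of -4.20 in neoCM, where both arrays were well above background, and was below background in both fibroblast groups. Groups of 2 arrays are too small to mark a single array as standing apart.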

How the results depend on the processing

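No call of the 36 genes turned its sign under the alternatives run. Of 243 calls of single genes, 227 held with array weights, 224 with the authors' deposited log2 values, 234 with the mean of probes, 242 without the filter on dim probes, 213 with normexp followed by quantile normalization and 231 with quantile normalization alone. All 171 calls tested with slide as a random block held. The correlation within slides in that fit was negative (-0.109), which does not widen the spread of a difference between slides. That setting therefore could not show whether the calls are free of a slide effect. The replicate numbers did not pair the samples (correlation of replicate differences between groups -0.134 to 0.175, median 0.00107, over 0.1 in 8 of 136 pairs), and with the replicate number as a block all 243 calls held, with 27 genes higher in neoCM than in neoCF and 4 higher with MGT over days 3 to 10 as before.

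Some counts of called genes moved. With the authors' values they were 0 lower for LacZ D10 against D3, 1 lower for MGT D10 against D3, 1 higher for the change of the MGT effect, and 1 lower for MGT against LacZ D10, iCM against CF D0 and iPSC2-CM D29 against D9. With normexp followed by quantile normalization they were 0 lower for LacZ D10 against D3, 1 higher and 0 lower for MGT D10 against D3, 1 higher for the change of the MGT effect, and 1 lower for MGT against LacZ D7, D10 and D14 and for iCM against CF D0. Quantile normalization alone gave 1 higher for the change of the MGT effect, 1 lower for MGT against LacZ D14 and 0 lower for iCM against CF D0. The mean of probes gave 1 higher and 1 lower for MGT D10 against D3 and 1 lower for MGT against LacZ D7 and D10. Array weights gave 2 higher for the change of the MGT effect, 1 lower for iCM against CF D0, and 2 higher and 0 lower for iPSC2-CM D29 against D9. Without both iPSC2-CM D29 arrays the change of the MGT effect had 2 higher, and without the filter iCM against CF D0 had 1 lower. The cause was not tested.

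Leaving out 1 array at a time, the higher counts ranged from 1 to 3 for MGT D10 against D3, 10 to 22 for iPSC2-CM D29 against D9, 1 to 2 for iPSC1-CM and for iPSC2-CM D9 against neoCM, 14 to 18 for iCM against CF D0, and 24 to 26 for neoCM against neoCF. The lower counts ranged from 0 to 0 for MGT D10 against D3, 0 to 3 for MGT against LacZ D10, 1 to 2 at D7, 2 to 2 at D14 and 2 to 3 over the mean of days 3 to 10. They ranged from 0 to 1 for iCM against CF D0, 2 to 4 for iCM against neoCF, 0 to 4 for iPSC2-CM D29 against D9 and 0 to 2 for neoCM against neoCF. With 1 array left in a group, that array is assumed to vary like the other groups. Over all genes, the day 3 split of MGT against LacZ, 618 higher and 361 lower, became 902 and 895 with array weights. The larger side of that split turned in 8 comparisons with quantile normalization, and in the same 8 with normexp before it and with the authors' values. With quantile normalization alone it went from 3492 higher and 4050 lower to 3672 and 3323 for iCM against neoCM, and from 3666 and 4201 to 3947 and 3274 for iCM against CF D0. It went from 3275 and 3902 to 3264 and 3161 for iCM against neoCF, from 3691 and 3483 to 3296 and 3663 for iPSC1-CM against neoCM and from 4189 and 3844 to 3545 and 4325 for iPSC2-CM D9 against neoCM. The other 3 are given with their comparisons. Without the filter on dim probes the split of neoCM against neoCF went from 3013 and 3124 to 4332 and 3111. Dim probes limit Acsl6 and Cpt1b, for which several values are bounds.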
